A study of Mus musculus with 96 samples.

Results

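The high mobility group genes examined here are 9 rows of the 40202 in the deposited gene tables, chosen by name: Hmgb1, Hmgb2, Hmgb3, Hmgn1, Hmgn2, Hmgn3, Hmgn5, Hmga1 and Hmga2. The rule uses names and no measured value, although the family was taken up with earlier results of these data known. Of the 9, 8 reached a mean of 5 counts per 1000000 counts (CPM) over the groups, as did 9374 genes in all. Hmgn3 did not, and it is described by its counts alone.

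The libraries came from single cells of the mouse lung line C10, labelled as alveolar type II epithelium and grown in RPMI medium with serum. The control group is 48 untreated cells. The other 48 cells had 36 h of RO-3306, marketed to inhibit the mitotic kinase CDK1, at a labelled dose of 10 nM. No gene was altered in either group, and both were dispensed singly and made into full-length cDNA libraries with SMART-seq. The labels name no separate cultures, so each treatment is 1 sample, cells are not replicates, and no difference below has a replicate check or a test. Each title has 1 of the letters A to D, with no meaning given, and the 4 lettered sets serve only to show whether a difference kept its sign.

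The filter of 50000 counts and 1000 detected genes kept 29 control cells (10, 8, 6 and 5 in sets A to D) and 37 RO-3306 cells (10, 10, 11 and 6). Totals of kept cells ran from 59979 to 6457215 counts in control (median 1753427) and from 295005 to 5321880 in RO-3306 (median 2234309). At equal depth the median cell had 4599 genes in control and 5954.5 in RO-3306. The RO-3306 cell B3 stood apart with 56.0% mitochondrial counts. Markers of the labelled cell type were near 0: the 9 alveolar type II markers summed to 9.93 CPM (control) and 9.01 CPM (RO-3306), where Sftpa1, Sftpc and Sftpd were at 0 in both groups. The 6 epithelial markers summed to 1.78 and 0.978 CPM. The 8 mesenchymal markers summed to 5630 and 2531 CPM, with a range over cells of 1329 to 11354 CPM for control and 1297 to 13886 CPM for RO-3306. The 5 macrophage markers summed to 57.6 and 61.2 CPM and the 4 endothelial markers to 0.619 and 0.149 CPM. The part of these shifts in the results below was not tested.

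High mobility group proteins are small, abundant chromatin proteins in 3 families that share a name and not a fold. HMGB proteins carry HMG boxes that bend DNA, and Hmgb1 protein released from injured cells also acts as an alarm signal. HMGN proteins bind the nucleosome core and counteract the compaction brought by linker histone H1. HMGA proteins hold AT-hooks that grip the minor groove of AT-rich DNA, and both are known as genes of embryonic and transformed cells.

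The upstream sequences of the 4 most abundant members are printed because their transcripts differed between the groups in opposite directions. Each run is the 250 bases before a RefSeq start, on the strand of the gene, from the RefSeq table of assembly GRCm38.p6. Capitals mark 3 motifs searched on both strands: the element CCAAT, the element TTTGAA and the GC box GGGCGG. No match here overlaps another kind of motif.
Hmgb1, chr5:149053058-149053307, minus strand: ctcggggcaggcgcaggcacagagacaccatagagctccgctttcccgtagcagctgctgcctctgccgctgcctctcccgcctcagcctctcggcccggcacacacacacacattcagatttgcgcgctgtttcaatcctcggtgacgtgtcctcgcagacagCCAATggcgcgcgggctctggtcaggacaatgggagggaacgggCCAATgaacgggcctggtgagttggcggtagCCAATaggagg
Hmgb2, chr8:57511593-57511842, plus strand: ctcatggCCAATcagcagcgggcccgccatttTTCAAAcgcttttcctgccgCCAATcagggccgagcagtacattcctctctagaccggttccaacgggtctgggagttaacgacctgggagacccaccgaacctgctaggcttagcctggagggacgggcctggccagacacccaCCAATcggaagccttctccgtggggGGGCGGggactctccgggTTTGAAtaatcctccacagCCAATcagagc
Hmgn1, chr16:96127726-96127975, minus strand: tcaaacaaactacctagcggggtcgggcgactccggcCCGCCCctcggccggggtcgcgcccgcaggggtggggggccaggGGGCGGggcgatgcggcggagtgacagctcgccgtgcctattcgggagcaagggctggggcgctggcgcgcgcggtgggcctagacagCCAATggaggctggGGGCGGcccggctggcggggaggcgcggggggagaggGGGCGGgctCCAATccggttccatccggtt
Hmgn2, chr4:133967992-133968241, minus strand: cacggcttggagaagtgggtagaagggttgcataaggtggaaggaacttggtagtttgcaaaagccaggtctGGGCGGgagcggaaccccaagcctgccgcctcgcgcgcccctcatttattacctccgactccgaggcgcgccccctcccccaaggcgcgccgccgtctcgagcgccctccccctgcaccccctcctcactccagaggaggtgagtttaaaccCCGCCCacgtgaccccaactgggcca
CCAAT is the element read by the NF-Y factor, TTTGAA is a form of the CHR element found in cell cycle genes, and GGGCGG is a GC box. The Hmgb2 window held 4 matches of CCAAT, beginning 243, 198, 73 and 11 bases before the start, and 2 of TTTGAA, beginning 218 and 30 bases before it. The Hmgb1 window held 3 of CCAAT, beginning 86, 42 and 11 bases before the start, while another RefSeq start of Hmgb1 had none and 4 GC boxes. The Hmgb3 window also held 3 of CCAAT, with 1 of TTTGAA. Hmgn1 had 2 of CCAAT and 4 GC boxes, and Hmgn2 had 2 GC boxes alone. Hmgn5 had 2 of CCAAT. The windows of Hmga1 and Hmga2 held GC boxes alone. Among all 32851 windows of this length, 33.8% held CCAAT, 2.79% held at least 3 of it, 15.99% held TTTGAA, 5.55% held both CCAAT and TTTGAA, and 32.7% held GGGCGG. The CHR variant TTCGAA was in 1.34% of all windows and in none of the members'. The E2F elements TTTCCCGC and TTTGGCGC, in 0.895% and 0.417% of all windows, were in none of the members' either. A match is a run of letters and not a bound site.

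Taken as a family, 5 of the 8 members above 5 CPM were higher in RO-3306 cells and 3 were lower, against 41% higher and 59% lower among all genes. The direction was the same in all 4 lettered sets for 5 members, where 23.4% of all genes had that. Hmgb3, Hmgn1 and Hmgn2 were higher in each set (13% of all genes), and Hmgb1 and Hmgb2 were lower in each set (10.3% of all genes). No member was both 2-fold apart and of 1 sign in all sets, as 13.7% of all genes were (7.23% higher, 6.43% lower). As log2 of RO-3306 over control, the median ratio was 0.40 for the 8 members and -0.22 over all 9374 genes. These ratios add 1 CPM to each group. Composition factors raise the median of all genes by about 0.2, to -0.02 (TMM) or 0.01 (DESeq2). The members' median rises to 0.60 or 0.63, with the same 5 members higher. The share of all genes that were lower falls from 59% to 50.9% or 49.7%, and shares of genes given below are without these factors. Signs by set were not redone with them. Hmgb2 in set A, at -0.13, lies within the shift of 0.21 (TMM) or 0.24 (DESeq2), so its sign there depends on the scaling. Ratios also moved with mRNA length: of 10 bins of genes by length, the shortest (up to 734 nt) had a median of 0.08 and the longest -0.90. The tested members run from 826.5 nt (Hmgn2) to 3760 nt (Hmga2). Relative to genes of like length their median was 0.40, and Hmga2 was at 1.16 in place of 0.48. The part of length and of genes per cell in these differences was not tested.

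**Figure D1:**
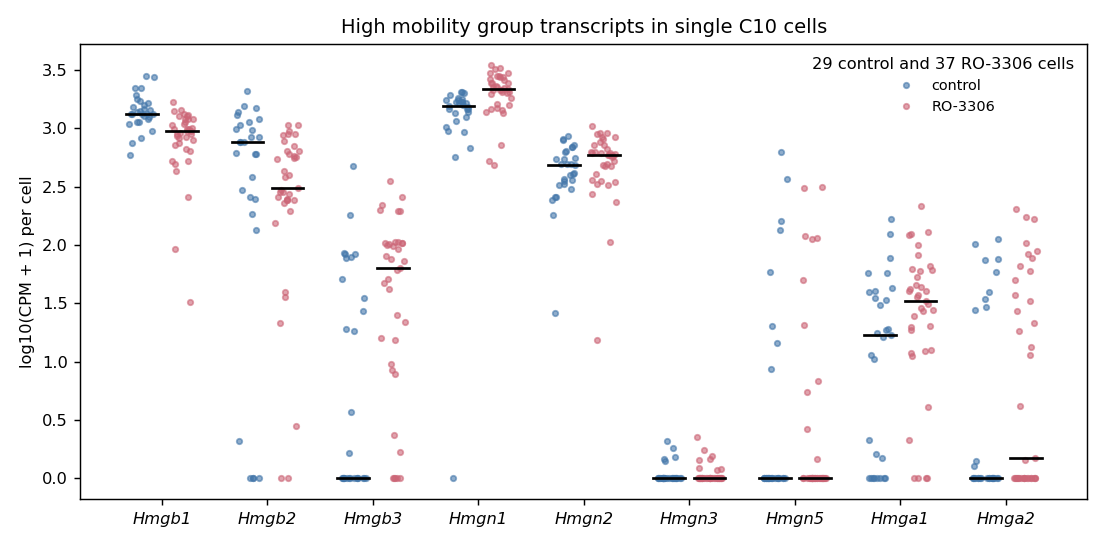
Each point is a kept cell (29 control, 37 RO-3306), the vertical axis is log10 of CPM plus 1, and black bars are medians over cells. Hmgb1 and Hmgb2 medians sit lower in RO-3306 and those of Hmgn1 and Hmgn2 higher, with overlapping ranges; many cells are at 0 for Hmgb3, Hmgn5 and Hmga2.

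Levels per kilobase of mRNA were compared between members. In control, Hmgb1 was highest at 1616 CPM per kilobase, then Hmgn1 at 1215, Hmgn2 at 599 and Hmgb2 at 464. Hmgn5 (50.8), Hmgb3 (30.6), Hmga1 (29.1), Hmga2 (7.08) and Hmgn3 (0.213) followed. In RO-3306, Hmgn1 was highest at 1814 CPM per kilobase, then Hmgb1 at 1050, Hmgn2 at 746 and Hmgb2 at 305. Hmgb3 (52.4), Hmga1 (48.9), Hmgn5 (13.1), Hmga2 (9.98) and Hmgn3 (0.117) followed. The quartile ranges over control cells overlapped for Hmgb1 (1297 to 1792) and Hmgn1 (1027 to 1433), and for Hmgn2 (402 to 759) and Hmgb2 (163 to 696). In RO-3306 cells the quartiles of Hmgn1 (1324 to 2185) and Hmgb1 (772 to 1285) did not overlap, nor did those of Hmgn2 (486 to 867) and Hmgb2 (158 to 417). Hmgn1 and Hmgn2 did not overlap in control, and Hmgb1 and Hmgn2 did in RO-3306. In both groups a gap separated Hmgb2 from the next member. Below it neighbours overlapped, except Hmga1 (12.7 to 63.8) and Hmgn5 (0 to 0.854) in RO-3306 cells.

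Hmgb1 (chromosome 5, 148983512 to 148989867, GRCm39), the most abundant HMG-box protein and an architectural factor, was detected in every kept cell. Control cells ranged from 591 to 2820 CPM (median 1335) and RO-3306 cells from 31.6 to 1688 CPM (median 938). The RO-3306 cells were low as a body: 34 of 37 lay below the control median, although the ranges overlap, and the lowest was the cell B3 named above. Summed counts gave 1492 CPM in control (95% counting interval 1483 to 1501) and 969 CPM in RO-3306 (963 to 975), a log2 ratio of -0.62. The ratio of sums was close to this in each set, at -0.62, -0.86, -0.68 and -0.59 in A to D. The log2 ratios of cell medians were less even, at -0.70, -0.83, -0.16 and -0.27.

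Hmgb2 (chromosome 8, 57964877 to 57969033), a close relative of Hmgb1 known for high levels in dividing cells, varied far more from cell to cell. Control cells ran from 0 to 2095 CPM (median 756), with a count in 25 of 29. RO-3306 cells ran from 0 to 1064 CPM (median 305), with a count in 35 of 37. The highest RO-3306 cell lay near the upper quartile of control cells (1059 CPM), and 30 of 37 RO-3306 cells lay below the control median. The sums were 706 CPM (699 to 712) and 464 CPM (460 to 469), a log2 ratio of -0.60. In the sums, set B gave most of this difference, at -1.29, against -0.13, -0.34 and -0.36 in A, C and D. Leaving out set B brought the ratio of sums to -0.22. The log2 ratios of cell medians were -1.15, -1.77, -0.27 and -0.40 in A to D, so set A also differed clearly by that measure.

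Hmgb3 (chromosome X, 70599523 to 70604279), a member known mainly from embryonic and blood-forming tissue, differed in how many cells held it. A count was present in 14 of 29 control cells (48.3%, 95% exact binomial interval 29.4% to 67.5%) and in 32 of 37 RO-3306 cells (86.5%, 71.2% to 95.5%). At equal depth these shares were 13 of 25 and 28 of 34. Control cells ran from 0 to 476 CPM with a median of 0, and RO-3306 cells from 0 to 355 CPM with a median of 62.3. The sums were 48.1 CPM (46.5 to 49.8) and 82.3 CPM (80.5 to 84.2), a log2 ratio of 0.76. Every set was higher, by 0.22, 0.93, 2.50 and 1.34, although the highest single cell was a control one. Among cells that held a count, the control median was 62.9 CPM and the RO-3306 median 76.99 CPM.

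Hmgn1 (chromosome 16, 95922788 to 95928925), a nucleosome-binding protein tied to open chromatin and DNA repair, was the most abundant member in RO-3306 cells. Control cells ran from 0 to 2052 CPM (median 1546), where the single cell at 0 was C3, and RO-3306 cells from 487 to 3501 CPM (median 2175). Of the RO-3306 cells, 29 of 37 exceeded the control median. The sums were 1479 CPM (1470 to 1488) and 2209 CPM (2199 to 2218), a log2 ratio of 0.58. All sets agreed in sign, at 0.40, 0.75, 0.82 and 0.48.

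Hmgn2 (chromosome 4, 133692050 to 133695302), the other widely expressed HMGN gene, showed a smaller difference in the same direction. Control cells ran from 25.3 to 864 CPM (median 478) and RO-3306 cells from 14.2 to 1048 CPM (median 588), with 25 of 37 RO-3306 cells above the control median. The sums were 495 CPM (490 to 501) and 616 CPM (611 to 621), a log2 ratio of 0.31. By set it was 0.03, 0.39, 0.74 and 0.24, so set A showed almost no difference.

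Hmgn5 (chromosome X, 108048143 to 108056986), an HMGN protein with a long acidic tail, was held by few cells: 8 of 29 control and 11 of 37 RO-3306. Its sums, 98.2 CPM (95.8 to 101) and 25.4 CPM (24.4 to 26.4), gave the lowest log2 ratio of the members, -1.91. That figure rests on single cells. Control A3, at 623 CPM, held 53.6% of the control counts, and RO-3306 C10 held 46% of the RO-3306 counts. Without A3 the log2 ratio was -0.94, with cells weighted equally it was -0.74, and by set it was -3.04, -2.26, 4.16 and 4.54. The direction is therefore not settled, and control set D had no Hmgn5 count, so its value turns on the added 1 CPM. Hmgn3 (chromosome 9, 82991995 to 83029411), known from the eye, brain and pancreatic islets, had 13 counts in 5 control cells and 10 counts in 8 RO-3306 cells, or 0.197 and 0.108 CPM, and no control cell exceeded 1.07 CPM.

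Hmga1 (chromosome 17, 27775548 to 27782646), an AT-hook protein common in proliferating and tumour cells, was present in 21 of 29 control and 33 of 37 RO-3306 cells, and at equal depth in 17 of 25 and 33 of 34. Control cells ran from 0 to 165 CPM (median 15.99) and RO-3306 cells from 0 to 216 CPM (median 32.2). The sums were 26.7 CPM (25.5 to 27.99) and 44.9 CPM (43.5 to 46.3), a log2 ratio of 0.73. Sets A, B and D gave 0.70, 1.09 and 0.72, and set C gave -0.12. In set C the control counts came from 2 of 6 cells, while 11 of 11 RO-3306 cells held a count. The cell medians there were 0 and 36.3 CPM, so the sign of set C rests on 2 control cells.

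Hmga2 (chromosome 10, 120197173 to 120312374), the AT-hook gene restrained by let-7 microRNAs, was present in 11 of 29 control and 20 of 37 RO-3306 cells. Control cells ran from 0 to 112 CPM and RO-3306 cells from 0 to 202 CPM, with medians of 0 and 0.482 CPM. The sums were 26.6 CPM (25.4 to 27.9) and 37.5 CPM (36.3 to 38.8), a log2 ratio of 0.48. The sets disagreed, at 1.33, -0.48, 5.69 and -0.24, and control set C had no Hmga2 count, so the value there turns on the added 1 CPM. Without control B4, which held 41.2% of the control counts, the ratio was 1.07, and without RO-3306 B4 it was 0.24.

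**Figure D2:**
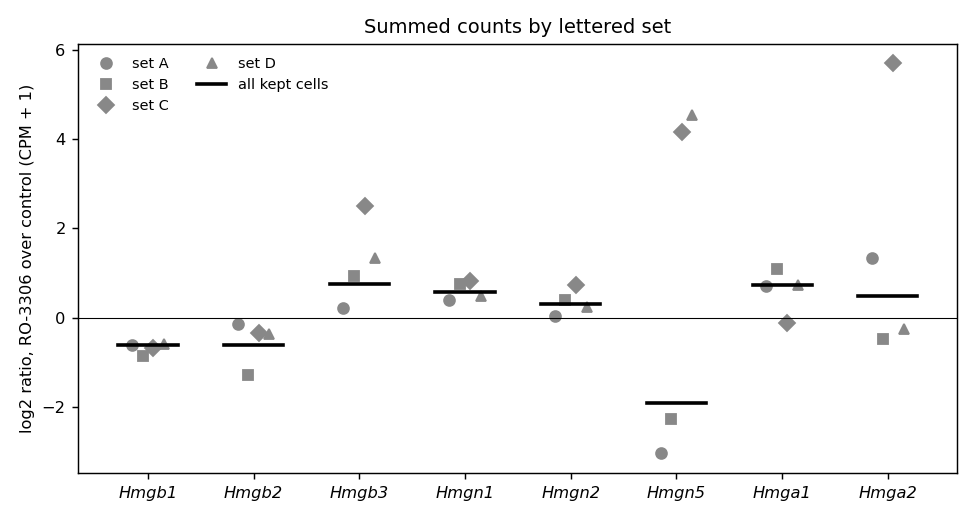
Log2 ratios of RO-3306 over control from summed CPM plus 1, for each lettered set (grey) and for all kept cells (black bars). The sets fall close together for Hmgb1 and Hmgn1 and on both sides of 0 for Hmgn5, Hmga1 and Hmga2.

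Members differed in how evenly cells held them. The coefficient of variation over cells was lowest for Hmgn1 (0.328 in control, 0.338 in RO-3306), Hmgb1 (0.354 and 0.407) and Hmgn2 (0.432 and 0.408). It was 0.788 and 0.732 for Hmgb2, and above 1 for Hmgb3 (2.25 and 1.06), Hmga1 (1.40 and 1.04), Hmga2 (1.76 and 1.62) and Hmgn5 (2.82 and 2.67). The abundant members thus varied less over cells than the scarce ones, with Hmgb2 the most variable of them, although their ranges given above were wide. The part of low counts in this contrast was not tested. Across 25 control cells at equal depth, Hmgb1 and Hmgn1 had a Spearman correlation of 0.02, and across 34 RO-3306 cells one of -0.11. Hmgn1 and Hmgn2 had 0.07 in control and 0.33 in RO-3306.

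Scaled to total counts, the pool of all 9 transcripts was almost the same size in both groups, while its make-up differed. It summed to 4372 CPM in control (4356 to 4388) and 4448 CPM in RO-3306 (4435 to 4462). Medians over cells were 4232 and 4327 CPM. HMGB transcripts made up 51.4% of the control pool and 34.1% of the RO-3306 pool. HMGN transcripts made up 47.4% and 64.1%, and HMGA transcripts 1.22% and 1.85%. Without set C the log2 ratio of the pool was -0.038 in place of 0.025, so its direction is not settled. With TMM or DESeq2 factors that ratio was 0.24 or 0.26, so the like size depends on the scaling.

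Ratios taken inside a cell do not depend on scaling between groups. The log2 ratio of Hmgn1 over Hmgb1 counts had a median of 0.16 in 28 control cells (quartiles -0.26 and 0.48) and of 1.27 in 37 RO-3306 cells (quartiles 0.86 and 1.63). Hmgn1 exceeded Hmgb1 in 17 of 28 control cells and in 37 of 37 RO-3306 cells. The medians by set were 0.22, -0.19, 0.06 and 0.48 in control and 1.33, 1.34, 0.93 and 0.89 in RO-3306, higher in RO-3306 each time. Hmgn2 over Hmgb1 moved the same way, from a median of -1.68 to -0.71, again in each set. Hmgn1 over Hmgn2 had medians of 1.83 and 1.87 over all cells, although 1.56 and 2.11 in set A. Hmgb2 over Hmgb1 had medians of -0.89 and -1.09 in cells with both. Members of a family did not all go together: Hmgb3 was higher in each set and Hmgb1 lower, as given above. These pairs were chosen after the members' values were known.

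**Figure D3:**
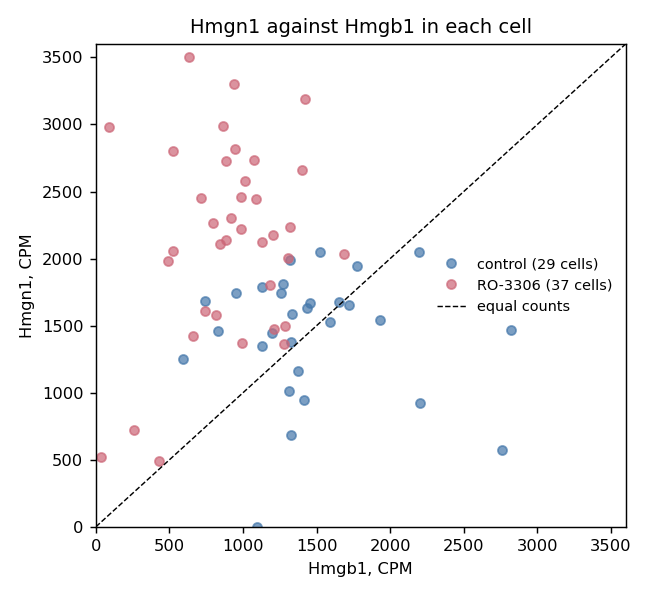
Hmgn1 CPM against Hmgb1 CPM in each kept cell; the dashed line marks equal counts. All 37 RO-3306 cells lie above the line, and of the 28 control cells with both transcripts 17 do.

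Counts of all members but Hmgn3 were in part split with other places in the genome, which bears on their values above. Reads placed at several sites were split into fractions by the authors, and a fractional count was seen in 98.5% of cells with Hmgb1, 90.0% for Hmgb2, 65.2% for Hmgb3, 72.3% for Hmgn1 and 100% for Hmgn2. For Hmgn5, Hmga1 and Hmga2 the shares were 47.4%, 83.3% and 29.03%, and none of the 13 cells with Hmgn3 had a fraction. A search of GENCODE M21 transcripts at 95% identity or more over at least 150 bases found 45 copies of Hmgb1, 12 of Hmgn2, 5 of Hmgb2, 4 of Hmgn1 and 1 each of Hmgb3, Hmgn5 and Hmga1, and none of Hmgn3 or Hmga2. Most have no row of their own: 24 copies of Hmgb1 and all 5 of Hmgb2 lie in no counted gene span, and a read fraction placed there is not in the tables.

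Other copies lie inside the spans of unrelated genes, and some of those rows followed the member. Epha5, a neuronal ephrin receptor whose span holds Hmgn2-ps1 (97.8% identical over 279 bases), was listed at 593 CPM (control) and 704 CPM (RO-3306), above Hmgn2 itself. Across cells its Spearman correlation with Hmgn2 was 0.93 in 29 control and 0.90 in 37 RO-3306 cells, given as a description, since cells share scaling and depth. The median log2 ratio of Epha5 over Hmgn2 within cells was 0.29 in control and 0.27 in RO-3306. Adarb2, a brain gene of the RNA-editing family whose span holds Gm10357 (99.6% identical), had 50.8 and 62.3 CPM and correlations of 0.95 and 0.92. For Hmgb1, Tfap2d (18.8 and 11.8 CPM) had correlations of 0.83 and 0.87. Vmn2r59, a vomeronasal receptor gene whose span holds Hmgb1-ps7, had 106 and 64.9 CPM with correlations of 0.60 and 0.83. Hmga1b (chromosome 11, 120653620 to 120655218), a copy of Hmga1 at 99.8% identity over 1538 bases with its own row, had 42.996 and 71.3 CPM, more than Hmga1, with correlations of 0.97 and 0.92. What share of these rows comes from the members' own transcripts was not tested.

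Adding the rows that correlated at 0.8 or more in both groups left the direction as it was. These rows were picked because they followed the member, so the sums are a description and no check of direction. Hmgn2 with Adarb2 and Epha5 came to 1139 and 1382 CPM, a log2 ratio of 0.28. Hmgb1 with Tfap2d came to 1511 and 981 CPM, at -0.62, and Hmga1 with Hmga1b to 69.7 and 116 CPM, at 0.73. By set, Hmga1b itself had 0.93, 0.98, -0.19 and 0.80, the same signs as Hmga1. As a near-identical copy of Hmga1 it gives no separate check.

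**Figure D4:**
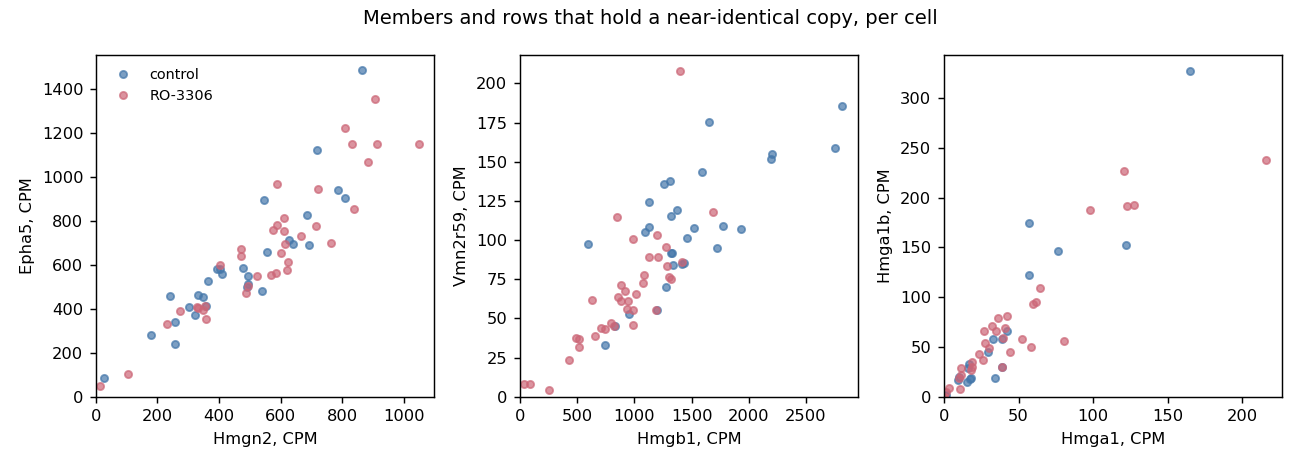
CPM per cell of a member (horizontal) and of a row that is, or whose span holds, a near-identical copy (vertical). Epha5 with Hmgn2 and Hmga1b with Hmga1 lie along a line in both groups, and Vmn2r59 with Hmgb1 follows more loosely.

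Genes tied to the family by function were read from lists written for it. Of 25 other HMG-box genes, 15 reached 5 CPM, and 13 were lower and 2 higher in RO-3306, against 59% lower among all genes. Their median log2 ratio was -0.80, against -0.22 for all genes and -0.90 for the bin of longest mRNAs. The part of mRNA length in this was not tested. Smarce1, an HMG-box subunit of the BAF remodeller, went from 235 to 105 CPM (-1.16), Sox12 from 56.9 to 26.7 CPM (-1.06) and the repressor Cic from 14.5 to 3.34 CPM (-1.84). These 3 of 15 were at least 2-fold lower with 1 sign in all sets, against 6.43% of all genes. Cic reached the mean of 5 CPM only through its control value. Ssrp1, the HMG-box subunit of the FACT chaperone, had 246 and 141 CPM (-0.80), Ubtf of ribosomal RNA transcription 130 and 53.0 CPM (-1.28) and mitochondrial Tfam 84.1 and 70.0 CPM (-0.26), each of mixed sign by set.

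Linker histones, which HMGN and HMGB proteins displace or compete with, had 2 of 7 genes above 5 CPM, both lower. H1f0, the replacement linker histone, went from 206 to 78.2 CPM (-1.39) and was lower in every set. H1f4 went from 10.5 to 1.49 CPM (-2.20) and reached the mean of 5 CPM only through its control value. Of 10 genes of the SET complex and acidic histone chaperones, 9 reached 5 CPM, with 8 lower and 1 higher and a median of -0.55. Set, namesake of the complex to which Hmgb2 protein belongs, had 1277 and 665 CPM (-0.94), and its partner Anp32b 950 and 483 CPM (-0.98), both lower in each set. Nme1 had 765 and 661 CPM (-0.21) and Npm1 1963 and 1967 CPM (0.00). Anp32e, the H2A.Z chaperone, had 100.02 and 40.7 CPM (-1.28). It was the single gene of the 9 at least 2-fold apart with 1 sign in all sets, as 13.7% of all genes were, and 59% of all genes were lower.

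The receptors and partners of extracellular Hmgb1 were thinly expressed apart from Cxcl12. Ager, Tlr9, Cxcr4 and Trem1 had no count in any kept cell, which allows up to 3 counts in each group total. Cxcl12, the chemokine that pairs with Hmgb1, had 3233 and 1345 CPM (-1.26), lower in every set. Cd24a had 13.8 and 47.02 CPM (1.70), seen in 3 of 29 against 15 of 37 cells, and Havcr2, a receptor that binds Hmgb1, had 2.79 and 7.55 CPM (1.17), both higher in every set. These 3 of 5 were at least 2-fold apart with 1 sign, against 13.7% of all genes. Havcr2 reached the mean of 5 CPM only through its RO-3306 value, so its call lies near that limit. Tlr2 had 29.5 and 11.1 CPM and Tlr4 17.01 and 30.6 CPM, of mixed sign by set. Among 7 regulators of Hmga2 mRNA, 2 reached 5 CPM: Igf2bp1, an RNA-binding protein, had 23.96 and 8.33 CPM (-1.42), lower in every set, and Igf2bp2, of the same RNA-binding family, had 50.9 and 38.8 CPM (-0.38). Lin28b, which blocks let-7, was at 1.21 and 1.03 CPM.

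Hmgb2 is commonly listed with cell cycle genes, so members were set beside S phase and G2/M lists that exclude them. Of 43 S phase genes, 41 reached 5 CPM, with 31 lower, 10 higher and a median of -0.59, against 59% lower and -0.22 among all genes. Mcm2, Mcm4, Mcm6 and Cdc6, 4 of the 41, were at least 2-fold lower with 1 sign, against 6.43% of all genes. Pcna, the replication clamp, had 281 and 216 CPM (-0.38). Of 53 G2/M genes, 32 were lower and 21 higher, with a median of -0.26, and 7 were at least 2-fold apart with 1 sign (13.7% of all genes), so these counts lie near those of all genes. Among the 7, Mki67 had 105 and 12.5 CPM (-2.98) and Psrc1 had 30.8 and 90.4 CPM (1.52). The abundant Ube2c and Cdk1 had 647 and 1246 CPM (0.94) and 564 and 504 CPM (-0.16). Over thinned cells, Hmgb2 correlated with the summed S phase list at a Spearman value of 0.55 in 25 control and 0.33 in 34 RO-3306 cells, and with the G2/M list at 0.52 and 0.46. Without the 2 cells farthest from the list median these were 0.43, 0.26, 0.55 and 0.38. Hmgb1 correlated with the G2/M list at 0.15 in control and 0.51 in RO-3306 cells, and Hmgb1 with Hmgb2 at 0.09 and 0.54. Hmgn1 stood at -0.30 and -0.15 against the G2/M list. These are descriptions over cells that share scaling, without a test of the difference between groups.

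Genes most like each member were sought over 25 thinned control cells among 2886 genes of at least 50 CPM with a count in 50% of cells or more. For Hmgn2 the closest were Adarb2 (0.89 in control, 0.87 in RO-3306) and Epha5 (0.88 and 0.88), the rows that hold its copies, then Crip1 (0.64 and 0.11). For Hmgb2 they were Klf3 (0.71 and 0.26), the CDK inhibitor Cdkn2c (0.66 and 0.35) and Tubgcp2 (0.64 and 0.08). For Hmgb3 they were Fam107b (0.81 and -0.01), the topoisomerase Top2a (0.77 and 0.04) and Stip1 (0.68 and -0.00). Psme3 (0.60 and -0.09), Ndufc2 (0.58 and 0.25) and Mrpl48 (0.57 and -0.05) led for Hmgb1, and Cox6a1 (0.65 and -0.11), Aimp1 (0.64 and -0.28) and Trim8 (0.63 and -0.03) for Hmgn1. Since these genes were picked as the 3 highest in control cells, lower values in RO-3306 cells follow from the choice and show no difference between the groups.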

How the data were processed

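RNA was read from 96 single-cell libraries, 48 control and 48 RO-3306, as single reads of 150 nt per the labels' protocols. The authors deposited expected counts per gene, made with featureCounts 2.0.3 on GRCm39 with the RefSeq annotation, per the file headers: whole gene spans were counted, reads placed at several sites were split into fractions, and no strand option was set. STAR and FastQC are named in the submitters' processing notes, with versions not given in the sources used here. Molecular identifiers were not used, so PCR copies are counted.

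Counts were summed over kept cells (at least 50000 counts and 1000 genes) and scaled to 1000000, and log2 ratios add 1 CPM. A gene was called at 2-fold or more with 1 sign in the 4 lettered sets. Reads from overlapping antisense genes cannot be told apart. The exact Poisson intervals (95%) cover counting error of reads only and used counts rounded to whole numbers. As PCR copies are counted, they do not give the error of transcripts. The Clopper-Pearson intervals (95%) of shares take the cells of 1 sample as independent draws. A count was fractional when over 1e-06 from a whole number. Correlations used cells thinned to 639000 counts (percentile 10 of kept totals, rounded down), which left 25 control and 34 RO-3306 cells; those with copy rows used all kept cells at full depth. Copies and mRNA lengths came from GENCODE M21 by blastn and by symbol. No doublet caller was run, as each library is 1 sorted cell.

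Members, lists and motifs were chosen with earlier results of these data known. Every member is named; from each list up to 4 genes of highest mean CPM and up to 4 called genes are named, and for likeness the 3 highest correlations. Protein motifs were not searched and Hmgn3 had no promoter window here. The sums were tested on simulated cells for RO-3306 over control, with 200 of 9331 genes changed 2-fold up or down. The sign came out right for 100% of them (median absolute error 0.18 on the log2 scale). The changes were all 2-fold and the spread between cells was alike for every gene. Smaller ratios and unevenly held members were therefore not covered. Alternatives used edgeR 4.0.16 (TMM), DESeq2 1.42.0, other filters, weights and pseudocounts, single sets left out and rows of copies added; other steps ran in Python 3.11.15 (numpy 2.4.6, scipy 1.17.1, pandas 2.3.3).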

Additional observations from a re-analysis of the deposited data

Results flagged for a closer look

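Libraries below the filter entered no comparison, and a member lay above its highest kept cell in 4 of them. In the left-out control library D3, Hmga2 had 3361 of 37586 counts, or 89421 CPM, against at most 202 CPM in any kept cell, while the other 8 members had 12.5 counts in all. In the left-out control library D11, Hmga1 had 105 of 26353 counts, or 3984 CPM, against at most 216 CPM in kept cells. Hmgn1 was high in a left-out library of each group, against at most 3501 CPM in kept cells: control D6 had 250 of 37029 counts, or 6751 CPM, and RO-3306 D4 had 960 of 184369 counts, or 5205 CPM. Hmgn1 was the only member with a count in both. The libraries D3, D11, D6 and D4 held 1692, 1471, 334 and 874 genes with a count, and their reads carry no molecular identifiers. Their part in a difference between the groups was not tested.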

How the results depend on the processing

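In each of the 16 alternatives run on the family, 5 members stayed higher and 3 lower by count, and no member that kept 1 sign in all sets changed direction. The median log2 ratio of the members (0.40) became 0.60 with TMM factors and 0.63 with DESeq2 size factors, and 0.31, 0.12 and 0.48 without sets A, C and D. The log2 ratio of the pool (0.025) became 0.24 and 0.26 with those factors (added after seeing the data), 0.049 with mitochondrial genes left out of totals, and 0.056, 0.047, -0.038 and 0.037 without sets A, B, C and D. Both factors change the split of called genes, from 678 higher and 603 lower to 807 and 511 (TMM) or 820 and 501 (DESeq2). In these counts only the 2-fold limit was rescaled, and the signs by set were left as they were. Over 18 alternatives per member, including leaving out the cell with the most counts and adding rows of copies (both added after seeing the data), log2 ratios ran from -0.71 to -0.39 for Hmgb1, -0.81 to -0.22 for Hmgb2, 0.46 to 1.14 for Hmgb3, 0.49 to 0.81 for Hmgn1 and 0.19 to 0.55 for Hmgn2. They ran from -2.70 to -0.74 for Hmgn5, 0.60 to 0.96 for Hmga1 and 0.04 to 1.44 for Hmga2. Of these 144 values, 61 stayed within the counting error of reads and 83 moved beyond it without a change of sign. That error is narrow for libraries that count PCR copies, and the cause was not tested. Relative to genes of like mRNA length, Hmga2 was at 1.16. Of 36 shares of cells with a count, 5 left their interval, 3 of them for Hmgn3. Depth limits Hmgn3 to a statement of its counts. No paired analysis was possible because the results come from no test and cell numbers do not pair cells.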
